A study of Mus musculus with 2 samples.

Results

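The miRNAs described here are 6 that are best known from white blood cells, Mir142, Mir223, Mir155, Mir146 (the gene of miR-146a), Mir150 and Mir511, as they appeared in small RNA libraries of the embryonic mouse heart. They were chosen by gene symbol, and 5 of the 6 were read from their own rows among 1973 counted miRNA genes. Mir142 was read instead as the counts on the strand opposite the gene Mir142b, which lies across it. The study holds 1 group, whole heart of strain B6NCrl embryos of both sexes at age 15.5 days, described as healthy. It has 2 biological replicates and no second condition. The hearts of 78 embryos were pooled for replicate 1 and those of 62 for replicate 2. Each value is therefore one of a pool and of a whole organ, so that blood left in the chambers and vessels is part of the sample. In such bulk RNA, fewer cells of a type and less RNA per cell cannot be told apart.

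A miRNA gene is transcribed as a hairpin from which an arm is cut out and loaded into an Argonaute protein. The mature miRNA then recognises target mRNAs, mainly through the seed near its 5′ end, and lowers their output. White blood cells carry a small set of miRNAs that other cells mostly lack. Mir142 is active across most blood lineages, Mir223 in neutrophils and monocytes, Mir150 in mature B and T cells, and Mir511 in macrophages that carry the mannose receptor. Mir155 and Mir146 are switched on when lymphocytes and macrophages are activated, and other cells, endothelium among them, make them too. Mir155 promotes the response, whereas Mir146 restrains it by lowering Traf6 and Irak1, a pair of proteins that pass on the signal of Toll-like receptors. The heart at this stage of development already holds resident macrophages.

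The mature sequences below are shown because the seed defines what each miRNA can recognise and because miRNAs are annotated on both strands of the Mir142 locus. They are RNA sequences from RefSeq on GRCm38.p6, printed 5′ to 3′, with the seed (bases 2 to 8) in capitals.
miR-142a-3p: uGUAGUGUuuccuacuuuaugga
miR-142a-5p: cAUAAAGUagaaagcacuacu
miR-142b: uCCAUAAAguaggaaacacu
miR-223-3p: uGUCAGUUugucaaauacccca
miR-155-5p: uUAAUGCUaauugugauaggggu
miR-146a-5p: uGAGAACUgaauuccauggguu
miR-146b-5p: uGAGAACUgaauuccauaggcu
miR-150-3p: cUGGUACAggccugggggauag
miR-511-3p: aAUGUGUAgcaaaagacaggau
Mir150 and Mir511 also have the arms miR-150-5p and miR-511-5p. Among the miRNAs printed, miR-146a-5p and miR-146b-5p share a seed. Both arms of a hairpin enter the same deposited count, and no value that follows separates them.

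The Mir142 hairpin lies on the plus strand of chromosome 11 (chr11:87756864-87756927, GRCm38), in an intron of the long non-coding RNA gene Mir142hg. Mir142b (ENSMUSG00000065420.2) lies on the minus strand (chr11:87756841-87756955) and covers all 64 bases of it. Both hairpins are shown because the level of Mir142 rests on telling their strands apart. In the first the capitals mark miR-142a-5p and miR-142a-3p, and in the second the stretch that is the reverse complement of the whole Mir142 hairpin.
Mir142: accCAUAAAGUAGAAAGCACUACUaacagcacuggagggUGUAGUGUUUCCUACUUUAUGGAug
Mir142b: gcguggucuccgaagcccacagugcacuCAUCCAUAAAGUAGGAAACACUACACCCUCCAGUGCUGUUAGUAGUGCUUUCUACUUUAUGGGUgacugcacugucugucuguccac
All 20 bases of miR-142b are the reverse complement of bases within miR-142a-3p. The minus strand at that place also resembles miR-142a-5p, as the printed sequences show, so that the strand of a read can rest on few bases.

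The count columns carry no names, and which strand each holds was inferred from their layout and values. The column read as the gene's own strand summed to 3439539 counts in replicate 1 and 5833156 in replicate 2, that read as the opposite strand to 209241 and 299184. Read this way, every count at this locus came from the Mir142 strand. Row Mir142b had 5452 counts in replicate 1 and 15543 in replicate 2 on the opposite strand, and 0 counts in both libraries on its own strand. A count of 0 allows up to 3 counts, or 0.872 CPM in replicate 1 and 0.514 CPM in replicate 2. CPM are counts per 1000000 counts on the strand of a miRNA gene, and the limit covers counting error only. Mir142b was therefore not detectable at this depth.

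Counts on the opposite strand lay almost wholly at a small set of genes. In all, 16 genes had more counts on the opposite strand than on their own, and they held 99.9% of all opposite-strand counts in each library. Of these 16 genes, 11 had at least 10 opposite-strand counts over both libraries, and opposite each of those 11 the later annotation places a miRNA gene on the other strand, as Mir142 stands opposite Mir142b. By opposite-strand counts row Mir142b had rank 5 in replicate 1 and rank 4 in replicate 2. Over all remaining genes, opposite-strand counts made up 0.00660% of counts in replicate 1, with a 95% interval (exact binomial, as for all intervals of levels, shares and ratios here) of 0.00577% to 0.00752%. In replicate 2 they made up 0.00737% (0.00669% to 0.00810%). With the 16 genes left out, this pooled rate is low in part by construction, and single genes departed from it. Of the 227 and 430 such counts in replicates 1 and 2, 1 gene held 95 and 210. Among remaining genes with at least 1000 own-strand counts the highest share was 1.71% in replicate 1 and 0.969% in replicate 2. The other 5 leukocyte miRNAs had 1 opposite-strand count in total, at Mir150 in replicate 1.

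**Figure D1:**
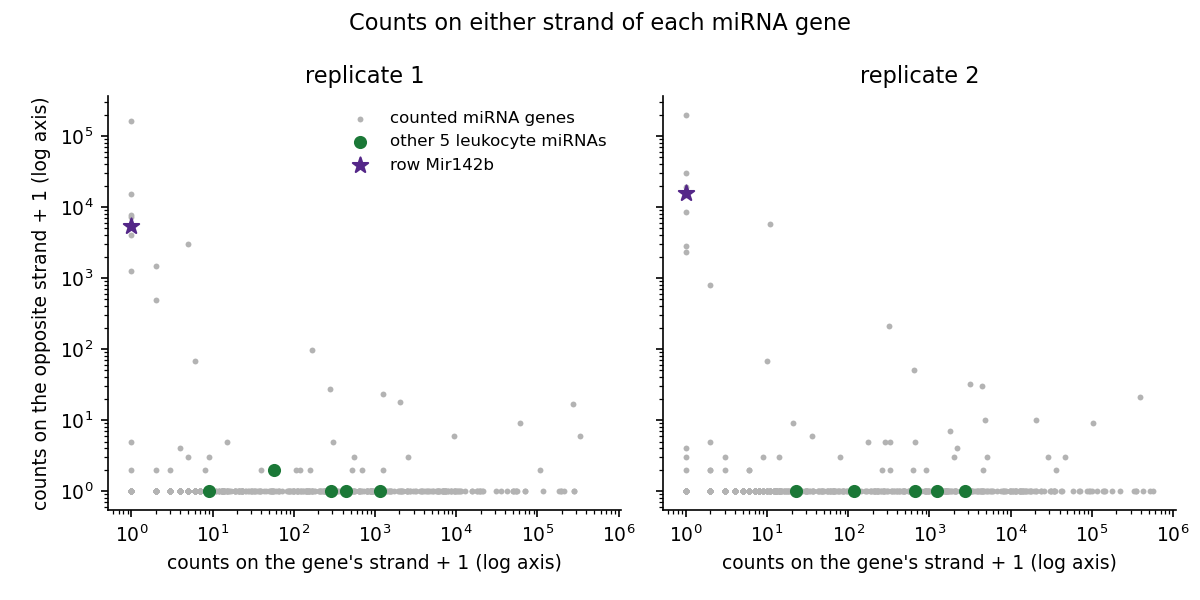
Counts on the gene's own strand (x axis) against counts on the opposite strand (y axis) for each counted miRNA gene, both plus 1 on log axes, with replicate 1 on the left and replicate 2 on the right. Row Mir142b (star) stands at 0 own-strand counts with 5452 and 15543 opposite-strand counts in replicates 1 and 2, while the other 5 leukocyte miRNAs (green) lie along the bottom.

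Mir142 was the most abundant of the 6 miRNAs in the embryonic heart. It stood at 1585 CPM in replicate 1 (95% interval 1543 to 1628) and 2665 CPM in replicate 2 (2623 to 2707), a mean of 2125 ± 763 CPM (SD, n = 2). Its counts are not part of the total they are divided by. Replicate 2 was the higher library, by more than the counting error. Added to the 1973 counted genes, it had rank 56 by mean CPM. With the miRNAs opposite the other 10 such rows ranked as well, an alternative chosen after seeing the data, it had rank 60, since 4 of them lay above it. The ranks that follow count none of these 10. Multiply matching reads, 33.0% and 30.1% of reads in replicates 1 and 2, entered no gene. A miRNA with copies at several loci can therefore rank too low, and all ranks here hold for the counted reads only. In the order by mean CPM the neighbours of Mir142 were Mir342 just above, at 2130 ± 432 CPM, and Mir181d just below, at 2071 ± 70.4 CPM (SD, n = 2 each). Mir342 is a miRNA of lymphoid and myeloid cells, and Mir181d belongs to a family known from developing T cells. Neither neighbour differed from Mir142 by more than the spread between libraries. Neighbours here and below were picked by closeness in mean CPM, so such likeness in level follows from the choice.

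Mir223 (ENSMUSG00000076066.1), the neutrophil and monocyte miRNA, was second. It lies on the plus strand of chromosome X (chrX:96242817-96242926) and overlaps an exon of the non-coding gene F630028O10Rik. It had 1155 counts or 336 CPM in replicate 1 (interval 317 to 356) and 2748 counts or 471 CPM in replicate 2 (454 to 489). The mean of 403 ± 95.7 CPM gave it rank 112, between Mir144 (411 ± 14.8 CPM), a miRNA of red cell precursors, and Mir185 (402 ± 19.4 CPM). Both of these lay within the range of Mir223 over the libraries.

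The miRNAs of activated cells followed. Mir155 (ENSMUSG00000065397.1) overlaps an exon of its host Mir155hg on chromosome 16 (chr16:84714140-84714204, plus strand). It had 441 counts or 128 CPM in replicate 1 (interval 117 to 141) and 1231 counts or 211 CPM in replicate 2 (199 to 223), with a mean of 170 ± 58.6 CPM and rank 151. Its neighbours were Mir132 (173 ± 17.7 CPM), which is induced in monocytes and in neurons, and Mir96 (169 ± 145 CPM), a miRNA of sensory organs. Mir146 (ENSMUSG00000065601.1), on the minus strand of chromosome 11 (chr11:43374397-43374461) and inside no annotated host on that strand, had 288 counts or 83.7 CPM in replicate 1 (interval 74.3 to 94.0). In replicate 2 Mir146 had 661 counts or 113 CPM (105 to 122). Its mean of 98.5 ± 20.9 CPM gave rank 186, between Mir672 (98.6 ± 10.7 CPM) and Mir669c (96.3 ± 17.8 CPM).

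The seed partner of Mir146 was barely counted. Mir146b, on chromosome 19, had 1 count in replicate 1 and 2 counts in replicate 2, at or under the limit of 3 counts. Counted from the 5′ end, miR-146b-5p differs from miR-146a-5p at 2 of 22 bases, G18A and U21C, with the miR-146a-5p base written first. The hairpins share a stretch of 21 bases, of which 17 lie in the mature miRNAs, and a read cut short inside it would match both genes and be counted for neither. The counts of Mir146 and Mir146b are uncertain to that extent, while Mir223, Mir155, Mir150 and Mir511 shared no stretch of 20 bases with another counted hairpin. Mir142 shared one with Mir142b alone, on the opposite strand of the same locus.

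The miRNAs of mature lymphocytes and of mannose receptor macrophages were the least abundant. Mir150 (ENSMUSG00000065495.1), which lowers the transcription factor Myb in lymphocytes, lies outside any annotated host on its strand of chromosome 7 (chr7:45121757-45121821, plus strand). It had 56 counts or 16.3 CPM in replicate 1 (interval 12.3 to 21.1) and 115 counts or 19.7 CPM in replicate 2 (16.3 to 23.7), a mean of 18.0 ± 2.43 CPM and rank 256. Its intervals overlapped between the libraries. The neighbours Mir702 (18.0 ± 4.55 CPM) and Mir3061 (17.9 ± 2.75 CPM) had means within the same range, but each ranged more widely over the libraries than Mir150.

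Mir511 (ENSMUSG00000077897.1) lies in an intron of Mrc1, the gene of the macrophage mannose receptor, on the plus strand of chromosome 2 (chr2:14261003-14261081). It had 8 counts or 2.33 CPM in replicate 1 (interval 1.00 to 4.58) and 22 counts or 3.77 CPM in replicate 2 (2.36 to 5.71), a mean of 3.05 ± 1.02 CPM. With rank 335 it stood between Mir7-2 (3.08 ± 0.247 CPM) and Mir7224 (3.00 ± 1.10 CPM), and the intervals of the libraries overlapped. Replicate 1 did not reach 10 counts, the minimum set here for detection in a library. The other 5 miRNAs reached it in both libraries, as did 327 of the 1973 counted genes (16.6%).

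**Figure D2:**
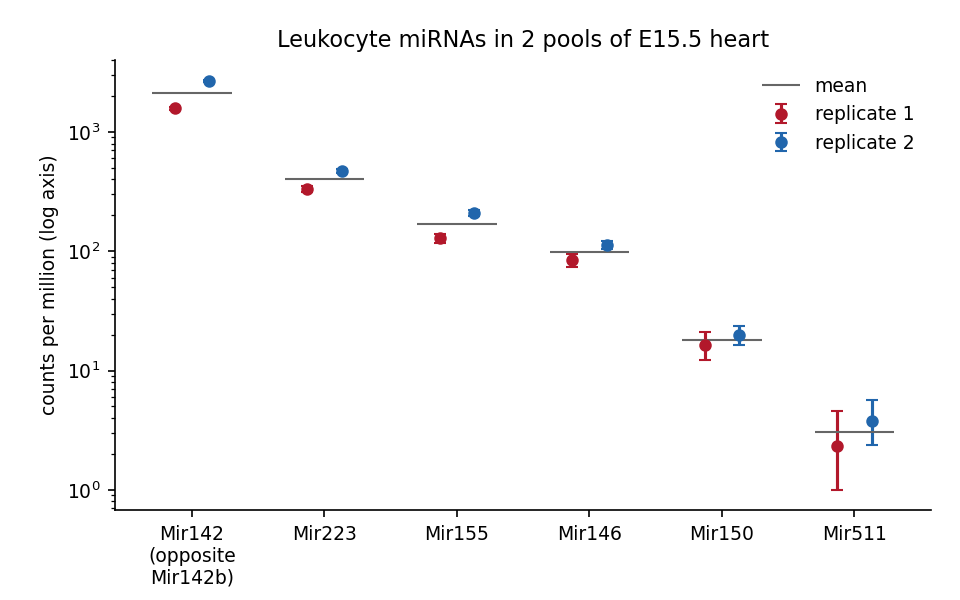
Level of each leukocyte miRNA in CPM on a log axis, with replicate 1 (red) left of replicate 2 (blue), exact binomial 95% intervals as bars and the mean as a line. The mean levels fall from 2125 CPM for Mir142 to 3.05 CPM for Mir511, replicate 2 is the higher point for each of the 6, and the ranges of different miRNAs do not overlap.

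The order of the 6 miRNAs was the same in both libraries, Mir142 highest, then Mir223, Mir155, Mir146, Mir150 and Mir511. For 0 of the 15 pairs did the ranges of levels over the libraries overlap, so that no neighbours in the order were closer than their spread. Ratios of counts between miRNAs also reflect how well each is captured in a library and need not be ratios of amounts. The counts of Mir142 over those of Mir223 gave 4.72 in replicate 1 (95% interval 4.43 to 5.03) and 5.66 in replicate 2 (5.43 to 5.89). The closest neighbours were Mir155 and Mir146, with a ratio of 1.53 in replicate 1 (1.32 to 1.78) and 1.86 in replicate 2 (1.69 to 2.05). Mir146 exceeded Mir150 by a ratio of 5.14 in replicate 1 (3.85 to 6.98) and 5.75 in replicate 2 (4.71 to 7.07). Mir150 exceeded Mir511 by a ratio of 7.00 in replicate 1 (3.32 to 17.0) and 5.23 in replicate 2 (3.29 to 8.67).

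A ratio between miRNAs of the same library does not depend on how the libraries are scaled. For 13 of the 15 pairs its counting intervals overlapped between the replicates. The exceptions were the ratios of Mir142 to Mir223 and to Mir146, both lower in replicate 1. Overlap of separate intervals is not a test of equal ratios, and ratios with overlapping intervals can still differ by more than counting error. Relative to the ratio, intervals were widest for pairs with Mir150 or Mir511, where counts were lowest. For Mir223 over Mir155 they overlapped only narrowly, at 2.62 in replicate 1 (2.34 to 2.93) and 2.23 in replicate 2 (2.09 to 2.39). The ratio of Mir142 to Mir146 was 18.9 in replicate 1 (16.8 to 21.4) and 23.5 in replicate 2 (21.8 to 25.5). Mir142 and Mir155 kept a closer ratio, 12.4 in replicate 1 (11.2 to 13.7) and 12.6 in replicate 2 (11.9 to 13.4), or 3.64 ± 0.02 on the log2 scale (SD, n = 2).

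Together the 6 miRNAs came to 2151 CPM in replicate 1 against 3484 CPM in replicate 2 (2817 ± 942 CPM, SD, n = 2). Mir142 made up 73.7% of their counts in replicate 1 (95% interval 72.7% to 74.7%) and 76.5% in replicate 2 (75.9% to 77.1%). Mir223 made up 15.6% (14.8% to 16.5%) in replicate 1 and 13.5% (13.1% to 14.0%) in replicate 2. Mir155 was at 5.96% and 6.06%, Mir146 at 3.89% and 3.25%, Mir150 at 0.757% and 0.566%, and Mir511 at 0.108% and 0.108% in replicates 1 and 2. The shares of Mir142 and Mir223 differed between the libraries by more than counting error, with intervals that did not overlap, and that of Mir155 did not. For Mir146 the intervals overlapped only narrowly, at 3.46% to 4.36% in replicate 1 and 3.01% to 3.51% in replicate 2. Without Mir142 the remaining 5 summed to 566 CPM in replicate 1 against 819 CPM in replicate 2, so that Mir142 alone exceeded their sum by a ratio of 2.80 in replicate 1 and 3.25 in replicate 2. The Mir142 counts were 1.51% of all reads lying on the strand of no counted gene in replicate 1, and 2.61% of them in replicate 2.

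**Figure D3:**
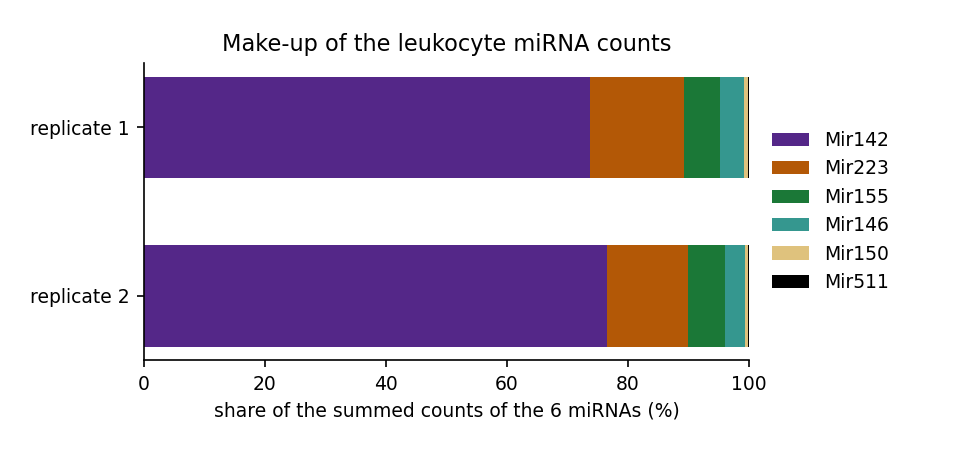
Share of each miRNA in the summed counts of the 6 leukocyte miRNAs (x axis, %) for replicate 1 (upper bar) and replicate 2 (lower bar). Mir142 takes 73.7% and 76.5%, and the segments of Mir150 and Mir511 are barely visible at under 1%.

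All 6 miRNAs were lower in replicate 1 than in replicate 2. After TMM scaling, which sets the libraries to each other by a trimmed mean of log ratios, the log2 ratio of replicate 1 to replicate 2 was -0.58 for Mir142 (95% counting interval -0.62 to -0.53) and -0.55 for Mir155 (-0.71 to -0.39). It was -0.32 for Mir223 (-0.42 to -0.22) and -0.26 for Mir146 (-0.47 to -0.06). For Mir150 (-0.10, interval -0.59 to 0.37) and Mir511 (-0.52, interval -1.90 to 0.70) the interval took in 0. The median was -0.42, against -0.04 over all 414 features tested, of which 222 were lower in replicate 1. Scaling by total counts moved every log2 ratio by -0.17, which put 286 of the 414 features lower in replicate 1. All 6 miRNAs stayed lower in replicate 1 under that scaling and under DESeq2 size factors.

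A two-sided exact conditional binomial test set the libraries against counting noise alone, with Benjamini-Hochberg adjustment over all 414 features. It compares 2 libraries and no conditions. It called 4 of the 6 miRNAs, all lower in replicate 1: Mir142 (adjusted p = 1.97e-149), Mir155 (adjusted p = 1.18e-11), Mir223 (adjusted p = 1.17e-09) and Mir146 (adjusted p = 0.0223). Mir150 (adjusted p = 0.796) and Mir511 (adjusted p = 0.584) did not pass. The same call was made for 103 of the 414 features (24.9%), and 90 (21.7%) were called in the other direction, so that 46.6% were called in all. By total counts the split was 156 lower and 48 higher in replicate 1.

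The differences were also set beside those of all miRNAs between the pools. An absolute log2 ratio larger than that of Mir142 was found for 123 of the 414 features, and one larger than that of Mir146 for 226. Among the 275 features with at least 100 counts summed, 47 exceeded Mir142, 51 Mir155, 101 Mir223 and 122 Mir146 in this way. In edgeR's exact test with 1 common dispersion for all features (a biological coefficient of variation of 29.9%), 0 of the 6 miRNAs were called, and 0 had an unadjusted p under 0.05. The smallest of these unadjusted p-values was 0.352, for Mir142. That test called 7 of the 414 features (1.69%), all of them lower in replicate 1. Its dispersion was estimated from the same pair of libraries, their difference included.

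**Figure D4:**
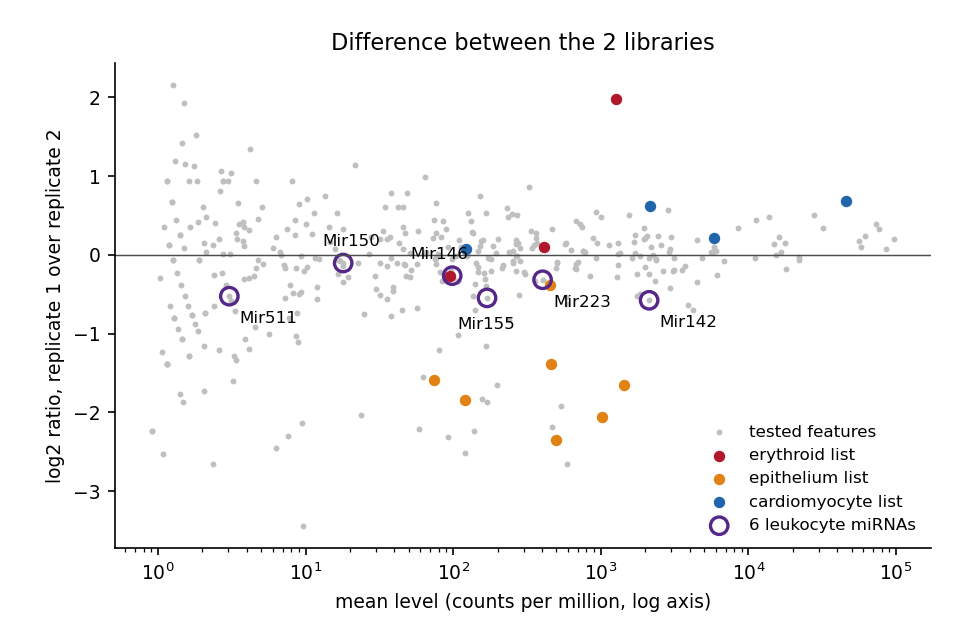
Log2 ratio of replicate 1 to replicate 2 after TMM scaling (y axis) against the mean level in CPM on a log axis (x axis), for 410 of the 414 tested features with counts in both libraries. The 6 leukocyte miRNAs (open circles) lie between -0.10 and -0.58, above most of the epithelium list and below the cardiomyocyte list.

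Other miRNAs linked to leukocytes lay in both directions. In a list of 11 further such genes, 6 of the 10 tested were higher and 4 lower in replicate 1 after TMM scaling, against 4 higher and 6 lower by total counts. After TMM scaling 4 were called higher and 2 lower in replicate 1, and the median log2 ratio was 0.14. Mir342 was called lower in replicate 1 (log2 ratio -0.24), with 1825 CPM there against 2436 CPM in replicate 2. Mir147, a miRNA of stimulated macrophages, was also called lower in replicate 1, with 6 counts in replicate 1 and 63 in replicate 2. The 4 called higher were all of the Mir181 family, whose highest member in this list, Mir181c, had a log2 ratio of 0.13 after TMM scaling although its unscaled level was 2533 CPM in replicate 1 against 2612 CPM in replicate 2. The Mir181 genes are also active outside blood cells, so this list is not one of leukocytes alone.

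Markers of other cell types differed between the pools as well. The epithelium list (Mir200 family, Mir203 and Mir205) had all 7 genes called lower in replicate 1, and summed to 1821 CPM in replicate 1 against 6297 CPM in replicate 2. The cardiomyocyte list had 4 of 4 genes detected and 3 called higher in replicate 1, and summed to 62459 CPM in replicate 1 against 45592 CPM in replicate 2. Within that list Mir208b was at 53878 and 37837 CPM in replicates 1 and 2, and Mir499 at 2492 and 1829 CPM. Mir208a was at 5972 and 5801 CPM, and Mir490 at 118 and 126 CPM. The endothelium list is Mir126a alone, with 79217 CPM in replicate 1 against 67775 CPM in replicate 2. The vascular miRNAs Mir221 and Mir222, outside the list, were called lower in replicate 1. Mir221 was at 68.9 and 98.1 CPM in replicates 1 and 2, and Mir222 at 25.9 and 50.1 CPM. Mir143 and Mir145a, the smooth muscle list, came together to 83564 CPM in replicate 1 against 89291 CPM in replicate 2, although both of its genes were called higher in replicate 1 after TMM scaling. The erythroid list summed to 2457 CPM in replicate 1 against 1095 CPM in replicate 2. Within it Mir451a, a miRNA of red blood cells, had a log2 ratio of 1.98, from 6794 counts in replicate 1 and 3290 counts in the deeper library of replicate 2. Mir144, from the same transcript as Mir451a, was at 401 and 422 CPM in replicates 1 and 2, and Mir486 at 80.8 and 110 CPM. Calls in this and the preceding paragraph are those of the binomial test. In edgeR's exact test 1 gene of the epithelium list, Mir205, was called (adjusted p = 0.0320), and 0 of the other 5 lists, where 2 genes had an unadjusted p under 0.05. Of the genes in these 5 lists 0 were at 0 in both libraries. The part of these cell types in the lower leukocyte values of replicate 1 was not tested.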

How the data were processed

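Small RNA from total RNA of 2 pools of embryonic mouse hearts was sequenced. The authors used mm10 and the GENCODE M4 annotation, per the notes deposited beside each count file. Which aligner, trimming and counter they ran is not given in the sources used here. Deposited values are whole read counts per miRNA gene in 3 unnamed columns. They were read as either strand, the gene's strand and the opposite strand, an order inferred from their layout, from the first equalling the sum of the others in every row, and from the second far exceeding the third in total. The first lines of each file, which name no gene, stayed out of totals and tests. They held 33.0% and 30.1% of reads as multiply matching, 13.1% and 15.1% as unmapped, and 5.11% and 5.07% on the strand of no gene, in replicates 1 and 2. Multiply matching reads enter no gene.

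Totals on the gene's strand were 3439539 and 5833156 counts in replicates 1 and 2. IDs were matched without version to GENCODE M21 of the same assembly (1894 of 1973), which gave symbols, positions and hosts, and RefSeq gave sequences. Intervals cover counting error only, since PCR reads without molecular identifiers are not independent molecules. Features with at least 10 counts summed were compared with an exact conditional binomial test at TMM-scaled library sizes (edgeR 4.0.16, R 4.3.3), threshold 0.05, with Mir142 added as 1 feature. Alternatives were total counts, DESeq2 1.42.0 size factors, other filters, other denominators and edgeR's exact test. On counts simulated from the real means, 91.5% of 200 genes changed by 1 on the log2 scale were called with the right sign, and 1.42% of unchanged genes were called (412 genes tested). The simulated counts held counting noise alone, without the spread between pools, and were compared at total counts. These rates therefore do not give the error rate of calls between the real pools. The tests used scipy 1.17.1 under Python 3.11.15.

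The members and lists were chosen with earlier results of these data known. Named genes are the 6 members, Mir142b, the gene directly above and below each in mean CPM, and the genes of 6 marker lists. Mir221 and Mir222 were named in addition, with their values known.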

Additional observations from a re-analysis of the deposited data

How the results depend on the processing

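No paired analysis was possible because the study has 1 group. The summed level of the 6 miRNAs was 1390 CPM with all reads as the denominator and 7225 CPM without the 10 most abundant genes in it, against 2817 CPM. Leaving out 1 replicate gave 2151 to 3484 CPM. The share of Mir142 ranged over 73.7% to 76.5% in the same way. Of the features called different between the libraries, 193 in all, edgeR's exact test with a common dispersion called 7, with 0 higher and 7 lower in replicate 1. Total-count scaling called 48 higher and 156 lower in replicate 1. The calls of Mir142, Mir223, Mir155 and Mir146 were lost in edgeR's exact test (adjusted p = 1 each), and that of Mir146 also with DESeq2 size factors (adjusted p = 0.0585 in the binomial test). No log2 ratio of the 6 miRNAs changed sign under any alternative run. The other alternatives, filters and detection minimums of 3 and 30 counts kept the counts of calls and of detected genes within 1.5 times. With the miRNAs opposite 10 other rows ranked too, chosen after seeing the data, ranks moved by 4 to 10 places. Depth limits Mir511 most, at 8 and 22 counts in replicates 1 and 2.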

Other observations

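The genes whose opposite strand carried most counts formed a set with Mir142b. By opposite-strand counts in replicate 2 the leading row was Gm25301, opposite Mir378a, with 163166 counts in replicate 1 and 198395 in replicate 2. Gm25927, opposite Mirlet7e, had 14998 and 30344 in replicates 1 and 2, and Gm24321, opposite Mir409, had 7792 and 19360. Each of these 3 rows had 0 counts on its own strand in both libraries, as Mir142b did. Counts opposite Mir142b, at 5452 in replicate 1 and 15543 in replicate 2, were 2.61% and 5.20% of all opposite-strand counts in replicates 1 and 2.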
